A study of Mus musculus with 9 samples.

Results

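The serpins described here are the 65 mouse genes, of 52459 gene symbols in the files, whose symbol begins with Serpin, a clade letter from a to i and a digit. The 3 symbols ending in -ps were left out, while *Serpina4-ps1* and *Serpinb1-ps1*, which carry a number after that ending, stayed in. RNA-Seq had been performed on NMuMG cells, an immortalized epithelial line from mouse mammary gland, without any added cytokine. Mock cells carried the empty pBICEP-based vector. EPR cells overexpressed the full BC030870 transcript, a long noncoding RNA that also encodes a small peptide, and EPRSTOPE cells overexpressed a point mutant of it whose second codon is a stop, so that the RNA is made without the peptide. There were 3 libraries of each. All 3 populations were untreated, grown in medium with serum and insulin, and were G418-selected pools of stable transfectants driven by a CMV promoter. The libraries are not tied to separate pools in the labels, so an effect of a pool and of its transgene cannot be told apart, and p-values measure only the spread between these libraries.

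Serpins are a superfamily of proteins of which most inhibit serine proteases, and some cysteine proteases, by a suicide mechanism: the protease cuts an exposed reactive loop and is trapped as a covalent complex. Clade a holds mainly secreted inhibitors made by liver, clade b the intracellular serpins of epithelia and leukocytes, and clade e the inhibitors of plasminogen activators and thrombin. A few members inhibit nothing, such as *Serpinh1*, the collagen chaperone HSP47 of the endoplasmic reticulum, and *Serpina7*, the thyroxine carrier of plasma. In mammary epithelium the family is best known for maspin, the product of *Serpinb5*, and for the control of pericellular plasmin.

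The libraries held between 5972457 and 11876435 estimated counts. BC030870 itself had at most 2 counts in a mock library, 214 to 271 in EPR libraries and 28 to 39 in EPRSTOPE libraries, so setting EPR directly against EPRSTOPE cells also compares different amounts of the transgene RNA. The mean fragment length implied by the deposited effective lengths was 412 to 474 bases in mock, 181 to 283 in EPR and 116 to 387 in EPRSTOPE libraries, and the abundance values depend on it. The 10 epithelial marker genes summed to 2311 to 2899 TPM (a relative level per library, corrected for transcript length) in mock, 5183 to 6424 in EPR and 5688 to 7702 in EPRSTOPE libraries, and most of this sum was *Krt8*, *Krt18* and *Krt19*. The markers did not move alike: *Cdh1*, the gene of E-cadherin, had a mean of 0.843, 556 and 403 CPM (counts scaled to the depth of each library) in mock, EPR and EPRSTOPE cells, *Epcam* one of 0, 3.63 and 0.110, and *Krt7* one of 1.87, 9.11 and 1.44. The leukocyte, endothelial, adipocyte and hepatocyte lists summed to at most 8.19 TPM in any library. The part of fragment length and of marker level in the serpin results was not tested, except that counts rebuilt from TPM were tried as an alternative.

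Of the 65 serpins, 20 passed the filter of at least 1 CPM in at least 3 libraries and were tested. Another 24 had some counts and 21 had none in any of the 9 libraries. Most of the silent genes belong to clade a, the liver serpins, of which 2 of 26 members were tested. Clade b gave 13 tested genes of 28. Among untested members, *Serpina1a*, *Serpina1c*, *Serpina1e*, *Serpina1f*, *Serpina9*, *Serpinb13*, *Serpinb1c*, *Serpinb9c*, *Serpinb9d*, *Serpinb9f*, *Serpinb9g*, *Serpind1*, *Serpinf1* and *Serpinf2* reached 3 counts in a library, and none of them exceeded 1.90 CPM. The tested genes *Serpinb6c*, *Serpinb7*, *Serpinb9e* and *Serpinb11* reached 1 CPM in EPRSTOPE libraries alone, and *Serpina1b* in mock libraries alone. These 5 had to differ from the group where they are high, so their differences from it are given without a p, and the counts of members below describe the 20 that passed rather than the family. *Serpina7*, *Serpinb1a*, *Serpinb2* and *Serpinb5* reached 1 CPM in no mock library, and *Serpini1* reached it in no EPRSTOPE library. Their passing thus required at least 1 other group to be higher, and the p given for them do not allow for this.

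A gene was called when its adjusted p (edgeR's quasi-likelihood test, Benjamini-Hochberg over all 15370 genes tested) was under 0.01 and its log2 fold change went beyond 0.5 in either direction. Against mock, 8 serpins were higher and 2 lower in EPR cells, where 28.1% of all genes tested were called (15.2% higher and 12.9% lower). In EPRSTOPE cells 13 were higher and 3 lower, beside 28% of all genes (15.6% higher and 12.4% lower). Directly compared, EPR cells had 2 serpins above and 9 below EPRSTOPE cells, beside 13.2% of all genes (6.86% higher and 6.35% lower). The genes that passed through 1 group make up 0 of the 8 higher and 1 of the 2 lower in EPR cells, 4 of the 13 and 1 of the 3 in EPRSTOPE cells, and 1 of the 2 and 4 of the 9 between them. *Serpina7*, *Serpinb1a*, *Serpinb2* and *Serpinb5*, which had no mock library at 1 CPM, are also among the 8 and the 13. *Serpini1*, with no EPRSTOPE library at 1 CPM, is among the 3. The median log2 fold change of the 20 was 0.29 in EPR cells, 1.93 in EPRSTOPE cells and -0.62 between them, while the medians over all genes were -0.01, -0.04 and 0.01. Genes at 0 counts in one group entered these medians with their fitted value, which is no bound. The CPM of the groups did not overlap for 11, 17 and 16 of the 20 serpins in these comparisons, against 57.8%, 56.5% and 43% of all genes. For genes that passed through 1 group, the filter fixed this and also shifted the medians. *Serpina1b* is thus among the 11, and all genes that passed through 1 group are among the 17. The 4 that passed through EPRSTOPE libraries are among the 16. With 3 libraries against 3, an exact two-sided permutation test of a single gene cannot go below p = 0.1.

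**Figure D1:**
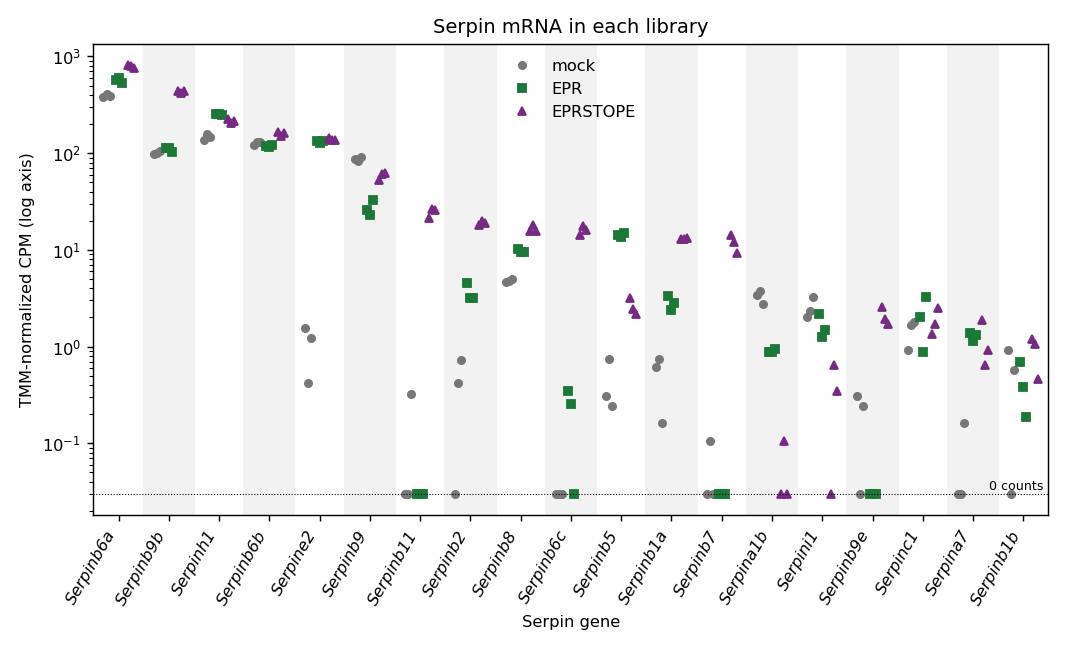
Normalized CPM (log axis) of 19 tested serpins in each of the 9 libraries, ordered by the highest group mean. Each symbol is 1 library (grey circles mock, green squares EPR, purple triangles EPRSTOPE), and symbols on the dotted line had 0 counts. *Serpinb6a* lies between 379 and 808 CPM in all 9 libraries, whereas *Serpine2* lies near 1 CPM in mock and at 126 CPM or more in the other libraries.

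On the TPM scale, which allows levels of different genes to be compared, *Serpinb6a*, an intracellular inhibitor of cathepsin G and trypsin-like proteases, stood at 375 ± 11.2 TPM in the mock, 450.5 ± 59.97 in the EPR and 572 ± 55.6 in the EPRSTOPE cells (SD, n = 3). *Serpinb9b* was at 62.0 ± 2.28, 54.8 ± 4.77 and 226 ± 30.9 TPM in these populations. *Serpine2* was at 0.245 ± 0.119, 95.8 ± 13.6 and 113 ± 27.9 TPM, so that it was far below *Serpinb9b* in mock cells and above it in EPR cells. In whole-culture RNA, a change in the number of cells that express a gene and a change in the RNA per cell cannot be told apart.

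*Serpine2* (ENSMUSG00000026249.10, chr1:79794197-79861180 of GRCm38, minus strand) had the highest fold change of the family in EPR cells. It encodes protease nexin-1, a secreted inhibitor of thrombin and of the urokinase and tissue plasminogen activators. Its CPM was 1.55, 0.422 and 1.22 in the mock libraries, 132, 126 and 132 in the EPR libraries and 144, 138 and 137 in the EPRSTOPE libraries. The mock libraries thus lay far under all others, and the EPR and EPRSTOPE libraries lay close together without overlapping. Its log2 fold change was 6.96 ± 0.17 (SE) in EPR cells and 7.06 ± 0.17 in EPRSTOPE cells, with adjusted p = 3.23e-11 and 2.16e-11 in edgeR's quasi-likelihood test. Between EPR and EPRSTOPE cells it was -0.10 ± 0.10 (adjusted p = 0.504 by the same edgeR test). None of the 8 other genes tested within 500 kb on either side was called in any comparison.

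The transcripts of *Serpine2* separated the groups further than the gene sum. The 3 protein-coding transcripts, *Serpine2*-201, *Serpine2*-203 and *Serpine2*-204, were listed at 0 TPM in all mock libraries and had means of 35.6, 36.2 and 22.5 TPM in EPR cells and 41.1, 50.8 and 20.1 TPM in EPRSTOPE cells. All of the mock signal was assigned to *Serpine2*-206, an annotated retained-intron transcript, at 0.245 ± 0.119 TPM (SD, n = 3). That transcript was at 0.602 ± 0.137 TPM in EPR and 0.440 ± 0.149 TPM in EPRSTOPE cells, which is at most 0.730% of the gene in any of their libraries. The promoter of *Serpine2* (RefSeq, GRCm38.p6, chr1:79858616-79858915, minus strand, 250 bases before to 50 after the start) is printed because the gene went from almost no signal to one of the most abundant serpins. By the Gencode M21 position given for the gene, this window lies inside it. The window is 77.7% G or C, and none of the 4 short motifs searched for on both strands, which are spelled out with the *Serpinb* promoters, occurs in it, so no letter is in capitals.
Serpine2: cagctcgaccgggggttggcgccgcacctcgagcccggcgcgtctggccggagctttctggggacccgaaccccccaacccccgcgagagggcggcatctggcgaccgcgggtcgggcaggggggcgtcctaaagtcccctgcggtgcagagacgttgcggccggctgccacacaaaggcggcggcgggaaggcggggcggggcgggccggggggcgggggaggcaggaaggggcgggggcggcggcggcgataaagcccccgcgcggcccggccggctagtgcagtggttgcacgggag

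*Serpinb2* (ENSMUSG00000062345.10, chr1:107511423-107535478, plus strand), plasminogen activator inhibitor type 2, was graded across the groups. It was found at 0, 0.422 and 0.733 CPM in the mock, 4.54, 3.16 and 3.18 in the EPR and 18.0, 19.8 and 18.9 in the EPRSTOPE libraries. No library of one group reached the range of another. No mock library reached 1 CPM, so the filter kept the gene through the transfectants. On the log2 scale the change was 2.98 ± 0.43 in EPR and 5.35 ± 0.38 in EPRSTOPE cells, and EPR cells lay below EPRSTOPE cells by -2.37 ± 0.28 (adjusted p = 0.000101, 2.45e-07 and 5.84e-05, edgeR's quasi-likelihood test). These are values of the gene sum. Up to 34.6% of its TPM in EPR and up to 58.3% in EPRSTOPE libraries was assigned to *Serpinb2*-203, an annotated nonsense-mediated-decay transcript at 0 TPM in mock. Of the 31-base words in the transcripts of *Serpinb2*, 11.2% also occur in *Serpinb10*, which had 0 counts in all libraries.

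Of 15 genes listed for plasminogen activation, 10 were tested. In EPR cells 4 were higher and 0 lower than in mock, in EPRSTOPE cells 6 were higher and 2 lower, and between them EPR cells had 2 above and 5 below EPRSTOPE cells. The shares of all genes called in these 3 comparisons were 28.1%, 28% and 13.2%, and they are also the background of the lists that follow. *Plat*, the tissue plasminogen activator, was higher in both, by 3.51 and 3.88 on the log2 scale. *Plau*, the urokinase, had a log2 fold change of 0.13 in EPR cells, which was not called, and of 1.93 in EPRSTOPE cells, with a mean of 29.4, 32.1 and 112 CPM in mock, EPR and EPRSTOPE cells. The urokinase receptor *Plaur* was higher by 1.03 and 0.88, and *Lrp1*, the endocytic receptor that clears protease and serpin complexes, by 1.70 and 2.47 on the same scale. *Vldlr* and *Plgrkt* were lower in EPRSTOPE cells, by -0.61 and -1.31. *Mst1* had a mean of 1.41, 2.93 and 12.7 CPM in mock, EPR and EPRSTOPE cells. *Plg*, the gene of plasminogen itself, and *Vtn* had 0 counts in all libraries.

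**Figure D2:**
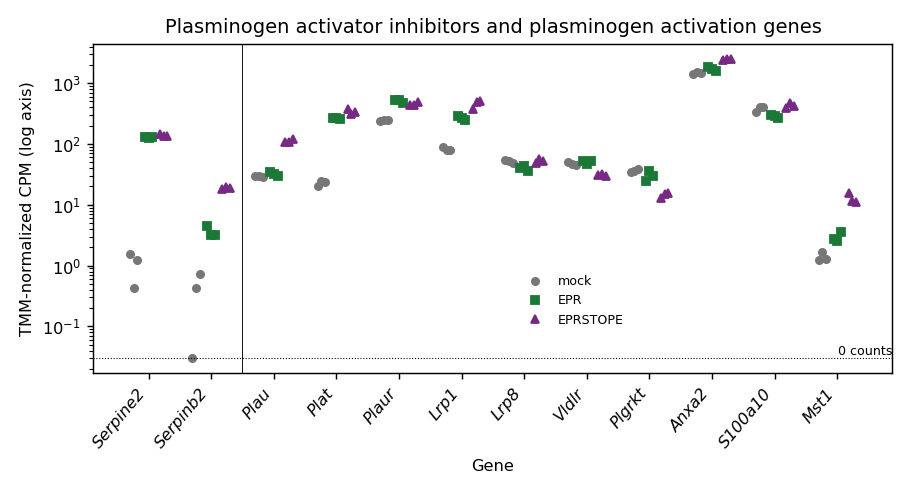
Normalized CPM (log axis) of 2 serpins that act on plasminogen activators (left of the line) and of the 10 tested plasminogen activation genes (right), by library. Grey circles are mock, green squares EPR and purple triangles EPRSTOPE, and the dotted line marks 0 counts. *Plat* is higher in both transfectants, and *Plau* and *Serpinb2* reach their highest levels in EPRSTOPE cells.

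Clade b lies in a pair of clusters of duplicated genes in mouse. The cluster on chromosome 1 spans 749 kb (chr1:106861173-107610484) and holds 12 members, of which *Serpinb5*, *Serpinb11*, *Serpinb7*, *Serpinb2* and *Serpinb8* were tested, in that order along the plus strand. All 5 were higher in EPRSTOPE than in mock cells, and all 5 differed between EPR and EPRSTOPE cells: *Serpinb5* was higher in EPR cells and the other 4 were lower. For *Serpinb11* and *Serpinb7* the position of EPRSTOPE cells was fixed by the filter, which leaves *Serpinb5*, *Serpinb2* and *Serpinb8* for EPR against EPRSTOPE cells. Against mock, *Serpinb5* and *Serpinb2* also depended on the filter, because no mock library reached 1 CPM, which leaves *Serpinb8*. The members between *Serpinb5* and *Serpinb11* (*Serpinb12*, *Serpinb13* and the *Serpinb3* copies) and *Serpinb10* did not pass the filter. Of the 4 other genes tested within 500 kb of the cluster, 0 were called between EPR and EPRSTOPE cells. Against mock, *Kdsr* was higher and *Phlpp1* lower in both transfectants, while *Bcl2* and *Vps4b* were not called.

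The promoters of these 5 genes are printed because *Serpinb5* moved in the opposite direction to the other tested genes of its cluster between EPR and EPRSTOPE cells. The sequences are from RefSeq on GRCm38.p6, plus strand, 250 bases before to 50 after the RefSeq start, and lie at chr1:106860925-106861224, chr1:107362064-107362363, chr1:107422439-107422738, chr1:107511173-107511472 (the first of the entries for this gene) and chr1:107589756-107590055. Capitals mark matches on either strand to TGANTCA (letters of the AP-1 site), TATAAA (letters of the TATA box), CACCTG (an E-box) and CAGACA (the CAGA box); in *Serpinb7* a CAGACA match on the minus strand overlaps the TGANTCA match.
Serpinb5: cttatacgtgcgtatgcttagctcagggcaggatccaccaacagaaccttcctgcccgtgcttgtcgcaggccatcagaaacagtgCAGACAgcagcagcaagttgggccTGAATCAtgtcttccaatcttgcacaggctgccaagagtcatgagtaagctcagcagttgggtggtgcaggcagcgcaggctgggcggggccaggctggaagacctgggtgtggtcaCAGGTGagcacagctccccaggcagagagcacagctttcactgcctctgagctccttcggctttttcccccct
Serpinb11: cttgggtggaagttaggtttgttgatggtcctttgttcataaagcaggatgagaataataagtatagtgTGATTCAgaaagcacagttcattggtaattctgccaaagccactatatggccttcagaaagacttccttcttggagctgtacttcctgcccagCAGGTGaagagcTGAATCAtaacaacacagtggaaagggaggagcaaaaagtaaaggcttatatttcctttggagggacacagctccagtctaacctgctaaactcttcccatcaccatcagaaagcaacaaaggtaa
Serpinb7: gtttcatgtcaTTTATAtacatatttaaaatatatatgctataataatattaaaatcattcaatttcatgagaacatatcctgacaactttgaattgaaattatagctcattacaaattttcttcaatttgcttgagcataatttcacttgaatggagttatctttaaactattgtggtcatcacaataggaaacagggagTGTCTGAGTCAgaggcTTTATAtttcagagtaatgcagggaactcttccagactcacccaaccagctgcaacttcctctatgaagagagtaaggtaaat
Serpinb2: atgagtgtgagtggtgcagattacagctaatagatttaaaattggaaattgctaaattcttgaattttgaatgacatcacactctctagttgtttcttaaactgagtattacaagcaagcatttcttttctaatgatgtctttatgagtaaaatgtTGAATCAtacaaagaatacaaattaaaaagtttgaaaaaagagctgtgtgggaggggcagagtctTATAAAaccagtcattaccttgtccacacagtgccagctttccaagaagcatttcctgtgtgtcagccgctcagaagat
Serpinb8: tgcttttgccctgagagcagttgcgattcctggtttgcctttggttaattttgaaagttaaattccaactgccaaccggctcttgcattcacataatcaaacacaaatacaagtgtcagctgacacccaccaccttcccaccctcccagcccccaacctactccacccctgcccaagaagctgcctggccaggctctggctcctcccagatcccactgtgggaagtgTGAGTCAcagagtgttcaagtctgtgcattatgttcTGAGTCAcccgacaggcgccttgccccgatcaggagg

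TGANTCA occurs in each of these 5 windows, against 7.81% of the 32851 mouse promoters in the RefSeq table. Counted from the RefSeq start, the first letter of the match is at position -140 in *Serpinb5*, -181 and -76 in *Serpinb11*, -45 in *Serpinb7*, -94 in *Serpinb2*, and -23 and 14 in *Serpinb8*. By the Gencode M21 positions used for the genes, the windows of *Serpinb11* and *Serpinb7* lie inside the gene. In the whole chromosome 1 cluster TGANTCA was found in 7 of the 11 members with a promoter entry, in the chromosome 13 cluster in 0 of 14 and in the clade a cluster on chromosome 12 in 4 of 18, among them the tested *Serpina1b*. A member was counted here if any of its promoter entries matched, whereas the 7.81% is a share of single entries. TATAAA was found in *Serpinb7* and *Serpinb2* (13.6% of all promoters), CACCTG in *Serpinb5* and *Serpinb11* (20.2%), and CAGACA in *Serpinb5* and *Serpinb7* (21.0%). These are matches of letters in genes related by duplication, and binding of a factor was not measured.

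*Serpinb5* (ENSMUSG00000067006.12, chr1:106861173-106883348), the gene of maspin, was highest in EPR cells and had no mock library at 1 CPM. Its CPM was 0.311, 0.739 and 0.244 in the mock, 14.3, 13.6 and 14.9 in the EPR and 3.22, 2.46 and 2.19 in the EPRSTOPE libraries. The 3 groups did not overlap, and of the tested clade b genes this was the one with the EPR libraries on top by the test. This gave a log2 fold change of 5.02 ± 0.32 in EPR cells, 2.55 ± 0.37 in EPRSTOPE cells and 2.46 ± 0.25 in EPR over EPRSTOPE cells (adjusted p = 9.49e-08, 0.00011 and 1.54e-05, edgeR's quasi-likelihood test). The summed TPM of the 7 basal or squamous epithelial markers was 390 to 445 in EPR, 130 to 139 in mock and 39.8 to 69.2 in EPRSTOPE libraries. That sum was carried by *Sprr1a*, whereas *Krt14* had 0 counts in EPR cells and *Trp63* 0 counts in all libraries, and its part in the *Serpinb5* values was not tested.

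*Serpinb11* (ENSMUSG00000026327.8, chr1:107361198-107380475) and *Serpinb7* (ENSMUSG00000067001.11, chr1:107399655-107452689), which encodes megsin, were detected almost entirely in EPRSTOPE cells. *Serpinb11* had 0, 0 and 0.326 CPM in mock, 0 in each EPR library and 21.3, 26.5 and 25.9 in EPRSTOPE libraries. *Serpinb7* had 0, 0.106 and 0 CPM in mock, 0 in each EPR library and 14.2, 11.96 and 9.32 in EPRSTOPE libraries. For both genes every EPRSTOPE library stood above every other library, which the filter required of them. With the floor of 3 counts over the 3 libraries, *Serpinb11* was at least 246-fold and *Serpinb7* at least 119-fold lower in EPR than in EPRSTOPE cells, with no p given because both passed the filter through EPRSTOPE libraries. Against mock, the EPRSTOPE level of *Serpinb11* was 226-fold higher on 599 against 4 counts (exact 95% counting interval 68.5 to 649), and that of *Serpinb7* 337-fold on 277 against 1 count (58.0 to 12924). All 4 mock counts of *Serpinb11* were in library 205: the fitted log2 change of 7.32 became 10.75 without that library, with mock then at 0 counts, and 6.78 without mock library 204. The mock count of *Serpinb7* was in library 204, and its fitted change ranged from 7.27 to 9.75 over the libraries left out. Such intervals and floors cover counting error only.

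*Serpinb8* (ENSMUSG00000026315.13, chr1:107590006-107610484), an inhibitor of furin and trypsin-like proteases, was expressed in all libraries. Its CPM was 4.66, 4.75 and 4.97 in the mock, 10.1, 9.47 and 9.44 in the EPR and 15.8, 17.9 and 15.8 in the EPRSTOPE libraries. The groups formed a staircase without overlap. This is the gene sum: 39.4 to 76.6% of its TPM in mock libraries was assigned to *Serpinb8*-204, an annotated retained-intron transcript. That share was 26.8 to 41.6% in EPR and 27.1 to 70.2% in EPRSTOPE libraries. The log2 fold change of the gene was 1.01 ± 0.14 in EPR and 1.78 ± 0.14 in EPRSTOPE cells, and -0.77 ± 0.13 between them (adjusted p = 8.26e-05, 5.49e-07 and 0.000791, edgeR's quasi-likelihood test). With counts rebuilt from TPM and length the last value was -0.59 and no longer called (adjusted p = 0.174, edgeR).

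**Figure D3:**
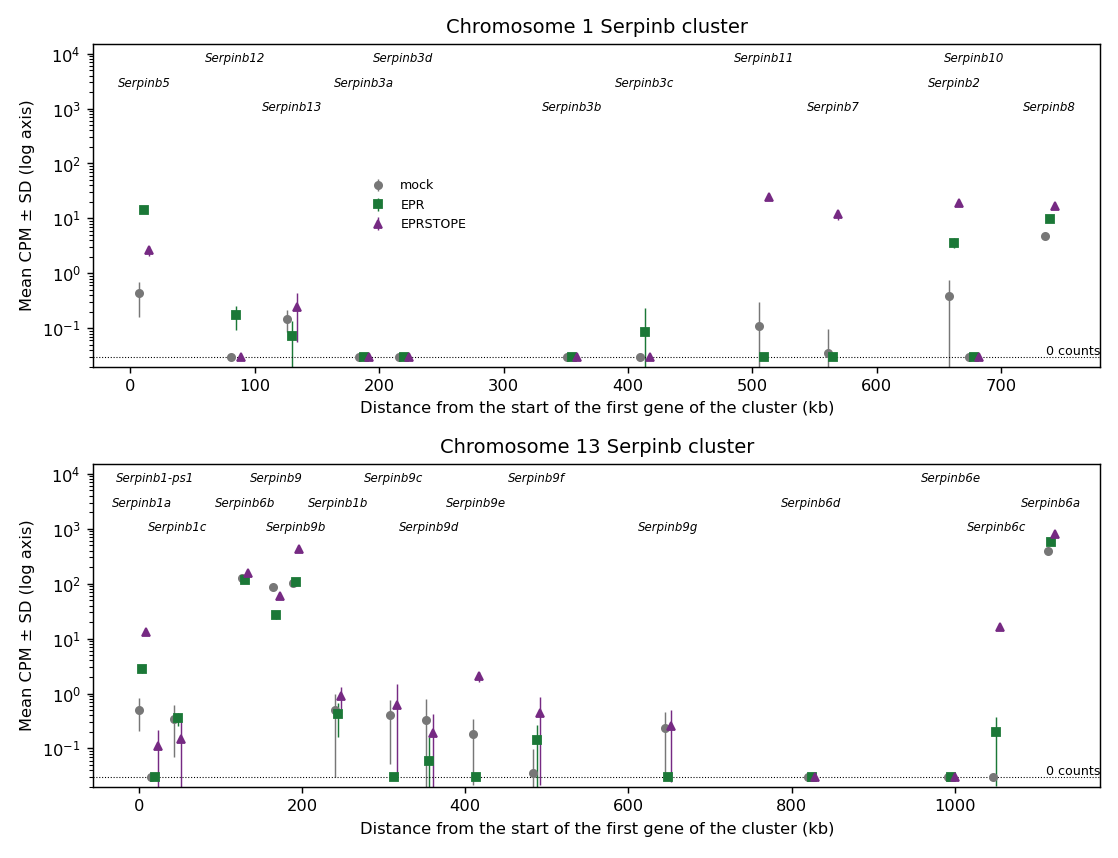
Mean CPM ± SD (n = 3, log axis) of each member in the chromosome 1 and chromosome 13 clusters of clade b, plotted against the distance in kb from the start of the first gene. Colours and symbols are mock (grey circles), EPR (green squares) and EPRSTOPE (purple triangles), means of 0 counts are on the dotted line, and lower bars that would reach 0 are shortened. On chromosome 1 the purple triangles are on top for *Serpinb11*, *Serpinb7*, *Serpinb2* and *Serpinb8* and the green square for *Serpinb5*.

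The cluster on chromosome 13 spans 1161 kb (chr13:32842092-34002794) and holds 16 members, of which 8 were tested. They include the most abundant clade b genes. *Serpinb9b* (ENSMUSG00000021403.3, chr13:33027416-33041884) had 98.95, 101 and 104 CPM in the mock, 113, 114 and 102 in the EPR and 436, 416 and 438 in the EPRSTOPE libraries. Mock and EPR libraries overlapped, and the EPRSTOPE libraries lay well above both. Its log2 fold change was 0.11 ± 0.06 in EPR cells (adjusted p = 0.154), 2.08 ± 0.06 in EPRSTOPE cells (1.12e-10) and -1.97 ± 0.06 between them (1.29e-09, all by edgeR's quasi-likelihood test). Both of its annotated transcripts, the protein-coding *Serpinb9b*-201 and the processed transcript *Serpinb9b*-202, shared this pattern, with 20.4, 23.7 and 96.4 TPM and 41.6, 31.1 and 130 TPM in mock, EPR and EPRSTOPE cells.

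*Serpinb9* (ENSMUSG00000045827.10, chr13:33003250-33017957), the granzyme B inhibitor and direct neighbour of *Serpinb9b*, was the one clade b gene that was lower in both transfectants. Its CPM was 87.0, 82.2 and 90.3 in the mock, 25.9, 23.1 and 32.5 in the EPR and 53.0, 61.6 and 62.4 in the EPRSTOPE libraries. EPR libraries were lowest and mock libraries highest, without overlap. It fell by 1.66 ± 0.11 on the log2 scale in EPR cells and by 0.55 ± 0.11 in EPRSTOPE cells, and EPR cells lay below EPRSTOPE cells by -1.12 ± 0.11 (adjusted p = 1.78e-07, 0.00116 and 1.7e-05, edgeR's quasi-likelihood test). The EPRSTOPE value lost its call with counts rebuilt from TPM, at -0.28, and without EPRSTOPE library 209, at -0.48. The leukocyte granule proteases, the usual targets of such inhibitors, were almost absent: of 10 genes 1 was tested, *Gzmm*, and it was not called in any comparison.

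*Serpinb6c* (ENSMUSG00000052180.15, chr13:33879816-33905708) had 0 CPM in every mock library, 0.349, 0.253 and 0 in EPR and 14.2, 17.8 and 16.1 in EPRSTOPE libraries. It was at least 151-fold higher in EPRSTOPE than in mock cells and 80.1-fold lower in EPR than in EPRSTOPE cells, on 6 against 391 counts. Its 6 counts in EPR cells did not separate it from mock (adjusted p = 0.0409, edgeR's quasi-likelihood test). *Serpinb6a* (ENSMUSG00000060147.15, chr13:33917918-34002794), the next gene along the chromosome, was abundant everywhere, with 379, 411 and 393 CPM in the mock, 576, 596 and 526 in the EPR and 808, 793 and 763 in the EPRSTOPE libraries. The groups did not overlap, and the level was higher by 0.52 ± 0.06 in EPR and 0.998 ± 0.058 in EPRSTOPE cells on the log2 scale (adjusted p = 1.23e-05 and 4.04e-08, edgeR's quasi-likelihood test), and the step between them, -0.48 ± 0.06, stayed under the fold limit. The EPR call sits near that limit: it was lost without mock library 203 or EPR library 207 (0.49 and 0.48) and with counts rebuilt from TPM (0.46). Of the 31-base words of *Serpinb6c*, 22.9% are shared with other genes, among them *Serpinb6b*.

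*Serpinb6b* (ENSMUSG00000042842.11, chr13:32965209-32979067) had 121, 131 and 130 CPM in the mock, 118, 115 and 121 in the EPR and 167, 149 and 163 in the EPRSTOPE libraries, and none of its differences passed both limits. The fitted log2 change was 0.32 ± 0.06 in EPRSTOPE against mock and -0.44 ± 0.06 in EPR against EPRSTOPE cells. *Serpinb1a* (ENSMUSG00000044734.16, chr13:32842092-32851185), an inhibitor of neutrophil elastase, had 0.621, 0.739 and 0.163 CPM in the mock, 3.32, 2.40 and 2.80 in the EPR and 13.04, 12.9 and 13.2 in the EPRSTOPE libraries. Of its TPM, 0.494 to 100% in mock libraries was assigned to the retained-intron *Serpinb1a*-203. The processed transcript *Serpinb1a*-204 took 5.46 to 52.9% in EPRSTOPE libraries. The libraries of *Serpinb1a* separated in the same order as those of *Serpinb2*. On the log2 scale the change was 2.57 ± 0.39 in EPR cells, 4.76 ± 0.35 in EPRSTOPE cells and -2.19 ± 0.27 between them (adjusted p = 0.000149, 3.38e-07 and 8.18e-05, edgeR's quasi-likelihood test), and with counts rebuilt from TPM the last was -1.86 and not called (adjusted p = 0.0142, edgeR). *Serpinb9e* was rare, with 0.185 ± 0.164 CPM in mock, 0 counts in EPR and 2.06 ± 0.426 CPM in EPRSTOPE cells (SD, n = 3). It was at least 20.7-fold lower in EPR than in EPRSTOPE cells, but 46.2% of its 31-base words occur in other genes, mainly *Serpinb9f*, so its assignment is uncertain. *Serpinb1b* stayed under 1 CPM on average in all groups and was not called.

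Between EPR and EPRSTOPE cells, 2 of the 11 other genes tested in the chromosome 13 cluster or within 500 kb of it were called, both of them above in EPR cells. Against mock, EPR cells had 3 of these 11 above and 3 below, and EPRSTOPE cells 3 above and 2 below. The tubulin genes *Tubb2a* and *Tubb2b* changed by 4.37 and -3.00 in EPR and by 3.03 and -3.94 in EPRSTOPE cells on the log2 scale. They are also the 2 genes called between EPR and EPRSTOPE cells. The 13 tested clade b members of both clusters together gave 5 higher and 1 lower in EPR cells, beside 15.2% and 12.9% of all genes. In EPRSTOPE cells 10 were higher and 1 lower (15.6% and 12.4%), and EPR against EPRSTOPE cells gave 1 higher and 9 lower (6.86% and 6.35%), with the 4 genes that passed through EPRSTOPE libraries among the 10 and among the 9. *Serpinb1a*, *Serpinb2* and *Serpinb5*, with no mock library at 1 CPM, are among the 5 and among the 10. Each comparison against mock uses the same 3 mock libraries.

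**Figure D4:**
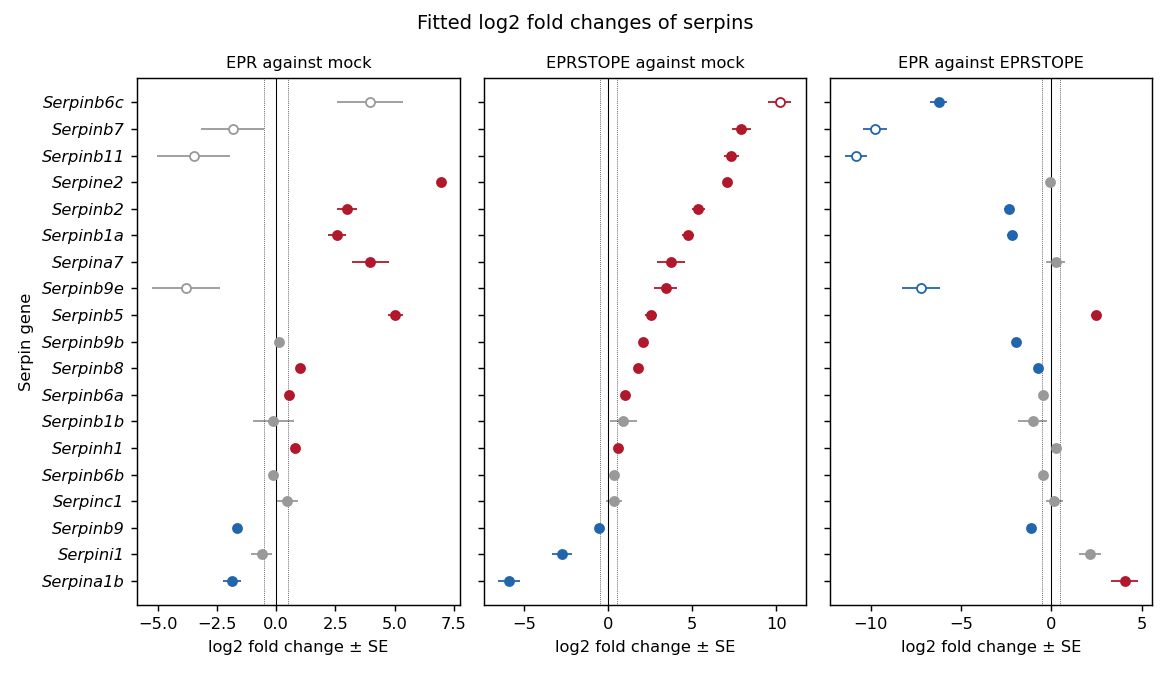
Fitted log2 fold change ± SE of 19 tested serpins in the 3 comparisons, ordered by EPRSTOPE against mock. Red and blue mark genes called higher and lower, grey genes not called, open circles genes with 0 counts in one group (whose fitted value is no bound), and dotted lines the limit of 0.5. In EPR against EPRSTOPE cells 9 genes are blue and *Serpinb5* and *Serpina1b* are red.

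*Serpinh1* (ENSMUSG00000070436.12, chr7:99345376-99353239, minus strand), the collagen chaperone, had 136, 158 and 148 CPM in the mock, 256, 254 and 248 in the EPR and 226, 205 and 215 in the EPRSTOPE libraries. Mock libraries were the lowest and EPR libraries the highest, with no overlap. This gave a log2 fold change of 0.78 ± 0.07 in EPR and 0.55 ± 0.07 in EPRSTOPE cells (adjusted p = 1.15e-06 and 2.37e-05, edgeR's quasi-likelihood test), and 0.23 ± 0.06 between them, which was not called. Without mock library 203 the EPRSTOPE value was 0.49, just under the limit. Of the 18 genes listed as its partners in collagen folding and as its collagen clients, 13 were tested, with 2 higher and 2 lower in EPR cells, 3 higher and 1 lower in EPRSTOPE cells and 1 higher and 1 lower between them. The prolyl hydroxylase genes *P3h1* and *P4hb* were higher in both transfectants, by 0.99 and 0.53 in EPR and 1.41 and 0.79 in EPRSTOPE cells on the log2 scale. The collagen genes *Col5a1* and *Col4a1* were lower in EPR cells, by -2.02 and -0.67.

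The clade a genes were scarce. *Serpina1b* (ENSMUSG00000071178.11, chr12:103728156-103830373), one of the mouse copies of α1-antitrypsin, the elastase inhibitor of plasma, had 3.33 ± 0.521 CPM in the mock, 0.897 ± 0.0329 in the EPR and 0.0356 ± 0.0617 in the EPRSTOPE cells (SD, n = 3). The order of the groups was opposite to that of *Serpinb2*. It passed the filter through mock libraries, so no p is given against them. Its log2 fold change was -1.87 ± 0.38 in EPR cells, and in EPRSTOPE cells 1 count stood against 92 in mock, a ratio of 93.5 with an exact counting interval of 13.7 to 3120. Since 44.7% of its 31-base words are shared with its copies, the 5 copies *Serpina1a* to *Serpina1e* were also summed. This gave 4.83 ± 0.944, 1.31 ± 0.306 and 0.427 ± 0.378 CPM in mock, EPR and EPRSTOPE cells (SD, n = 3), again without overlap. *Serpina1b* itself gave 3.33 CPM of the mock sum, so the separation of the sum from mock is not independent of the filter. *Serpina7* had 2 counts in the mock, 39 in the EPR and 25 in the EPRSTOPE cells, or 0.0543 ± 0.0940, 1.28 ± 0.132 and 1.14 ± 0.641 CPM. It was called higher in both transfectants (adjusted p = 0.0012 and 0.00244, edgeR's quasi-likelihood test), with counting ratios of 23.6 (4.73 to 156) and 21.0 (3.67 to 128), and the second call was lost without mock library 204 (adjusted p = 0.0107, edgeR). *Serpina7* passed the filter through the EPR libraries and EPRSTOPE library 209, with no mock library at 1 CPM. These p do not allow for that selection.

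*Serpini1*, the gene of neuroserpin, an inhibitor of the tissue plasminogen activator, had 2.53 ± 0.645 CPM in the mock, 1.65 ± 0.478 in the EPR and 0.329 ± 0.321 in the EPRSTOPE cells (SD, n = 3). It was lower in EPRSTOPE cells, where no library reached 1 CPM, by -2.77 ± 0.58 on the log2 scale (adjusted p = 0.00181, edgeR's quasi-likelihood test). Its difference of 2.15 ± 0.60 between EPR and EPRSTOPE cells missed the limit (adjusted p = 0.0174, edgeR) and passed it with DESeq2 and without a filter on low counts. *Serpinc1*, the gene of antithrombin, stood at 1.47 ± 0.469, 2.05 ± 1.19 and 1.87 ± 0.603 CPM and was called in no comparison. Between 8.43 and 100% of its TPM in a library came from an annotated retained-intron transcript, *Serpinc1*-203, so little of its signal was assigned to coding transcripts in the libraries at the upper end.

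Antithrombin and protease nexin-1 act on coagulation proteases. Of 18 genes listed for coagulation 7 were tested, which are receptors, cofactors and an inhibitor, and none of them encodes a protease. In EPR cells 3 were higher and 1 lower, in EPRSTOPE cells 4 were higher and 2 lower, and between them 1 was higher and 2 lower in EPR cells. *F2rl1*, a protease-activated receptor, and *Procr*, the protein C receptor, were higher in both transfectants, by 2.92 and 2.504 in EPR and by 2.60 and 2.25 in EPRSTOPE cells on the log2 scale, while *F2r*, the thrombin receptor, was lower by -1.97 and -0.60. *Tfpi*, the inhibitor of the tissue factor pathway, had 0.334, 0.554 and 26.9 CPM on average in mock, EPR and EPRSTOPE cells. Its fitted log2 difference was -5.54 between EPR and EPRSTOPE cells. *Tfpi* reached 1 CPM in EPRSTOPE libraries alone, so the filter fixed its position and no p is given. It is among the 4 higher in EPRSTOPE cells and the 2 lower in EPR than in EPRSTOPE cells.

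The intracellular clade b serpins can meet lysosomal cathepsins and caspases, of which 14 of 17 were tested. In EPR cells 9 were higher and 0 lower, in EPRSTOPE cells 10 were higher and 0 lower, and between them 1 was higher and 4 lower in EPR cells. Of all genes tested, 15.2%, 15.6% and 6.86% were higher in these comparisons. *Ctsh* was the most changed, by 5.35 in EPR and 5.06 in EPRSTOPE cells on the log2 scale, with 3.64, 146 and 120 CPM on average in mock, EPR and EPRSTOPE cells. *Ctsb* and *Ctsd* were higher in both transfectants, by 1.43 and 1.36 in EPR and by 1.78 and 1.24 in EPRSTOPE cells.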

How the data were processed

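RNA-Seq of 9 NMuMG libraries (TruSeq Stranded Total RNA, paired reads) was used. The authors quantified read pairs with kallisto 0.43.1 on Gencode vM15 transcripts (GRCm38) and deposited, per transcript, an estimated count and a TPM value. The strand setting is not given in the sources used here, so reads of overlapping antisense genes cannot be told apart. Estimated counts were summed over the 131100 transcripts by gene symbol and rounded. Genes that reached 1 CPM in 3 or more libraries were retained, normalized by TMM and tested with edgeR 4.0.16 (R 4.3.3) by the quasi-likelihood test with 1 factor of 3 levels, and p-values were adjusted by Benjamini-Hochberg. A call needed both an adjusted p below 0.01 and a change of more than 0.5 on the log2 scale.

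Totals per library ran from 5972457 to 11876435. Counting intervals are exact, the floor is 3 counts over the 3 libraries of a group, and both cover counting error only. Replicates differed by more than sampling noise (chi-square per degree of freedom 4.70 to 10.7), so none was treated as a duplicate. Alternatives were DESeq2 1.42.0, limma 3.58.1 with voom, upper-quartile scaling, other filters and thresholds, counts rebuilt from TPM and length, transcripts in place of genes, only the compared groups, and leaving out each library. The scripts were tested on simulated data.

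Serpins were taken by symbol. Of those tested, 1 enters the counts and medians but is not reported here. Each of the other 19 is named, and those whose mean reached 5 CPM in any group are given with all libraries. Other genes came from lists of protease pathways, other inhibitors, collagen folding and cell type markers. The members and lists were chosen with earlier results of these data known. Positions are those of Gencode M21 on GRCm38, matched by gene ID for 65 of 65 serpins. Promoters, from RefSeq on GRCm38.p6, matched 53 serpins, 18 of them tested. Words of 31 bases were compared between the M21 transcripts of all genes.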

Additional observations from a re-analysis of the deposited data

How the results depend on the processing

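With DESeq2, limma with voom, upper-quartile scaling, no filter, only the compared groups, a log2 limit of 1 or a library left out, each of the 6 counts of called serpins stayed within 1.5 times its value. Leaving out a library gave 7 to 9 higher and 2 lower in EPR cells, 12 to 13 higher and 2 to 3 lower in EPRSTOPE cells, and 2 higher and 9 to 10 lower between them. Requiring 10 counts in every library left 7 serpins, with 3 higher and 1 lower in EPR cells, 4 and 1 in EPRSTOPE cells, and 0 and 3 between them. Counts rebuilt from TPM and length gave 1 lower in EPR cells. At an adjusted p under 0.05 with any fold change, 4 were higher in EPR than in EPRSTOPE cells. By transcripts, which are tested one by one on fewer counts each, 4 serpins were higher and 1 lower in EPR cells, and 0 higher and 2 lower between EPR and EPRSTOPE cells. The log2 fold changes given here that turned sign were uncalled, and the cause was not tested. In EPR against mock, *Serpinb1b* (-0.13) became 0.49 with voom and ranged from -0.76 to 0.45 over the libraries left out, and *Serpinb6b* (-0.12) became 0.17 with counts rebuilt from TPM. In EPR against EPRSTOPE, *Serpinc1* (0.15) became -0.42 with counts rebuilt from TPM and ranged from -0.33 to 0.48 over the libraries left out (-0.014 without EPRSTOPE library 209), and *Serpina7* (0.23) ranged from -0.068 to 0.72. *Serpinb6c* in EPR against mock was called without EPR library 208 (4.55), as was *Serpinb6a* in EPR against EPRSTOPE without EPR library 207 (-0.52). Genes under about 5 CPM rest on few counts in libraries of this depth. No paired analysis was possible because the libraries carry the numbers 203 to 211 and no number is shared between groups.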

Other observations

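Protease inhibitors outside the serpin family were also tested, 6 of 18 listed. In EPR cells 4 were higher and 0 lower than in mock, in EPRSTOPE cells 5 were higher and 0 lower, and between them 0 were higher and 1 lower in EPR cells. The shares of all genes called in these comparisons, 28.1%, 28% and 13.2%, are the background of each list named here. *Slpi*, the secretory leukocyte protease inhibitor, had 0.0543 ± 0.0940 CPM in the mock, 34.9 ± 3.32 in the EPR and 108 ± 4.49 in the EPRSTOPE cells (SD, n = 3), and it was the listed inhibitor called lower in EPR than in EPRSTOPE cells (adjusted p = 5.81e-07, edgeR's quasi-likelihood test). *Wfdc2*, another secreted protein with a four-disulfide core, had 0.125 ± 0.111, 269 ± 11.3 and 202 ± 4.85 CPM. *Spint2*, which inhibits membrane serine proteases, was higher by 2.31 in EPR and 1.88 in EPRSTOPE cells on the log2 scale.

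Of the 20 listed serine proteases of epithelial surfaces, 6 were tested, with 3 higher and 1 lower in EPR cells, 3 higher and 1 lower in EPRSTOPE cells and 1 higher and 1 lower between them. *Prss23* had a mean of 28.2, 42.8 and 208 CPM in mock, EPR and EPRSTOPE cells, and *Htra1* one of 6.99, 1.41 and 0.145 CPM. Of the 10 complement genes listed with *Serping1*, the C1 inhibitor, 7 were tested, with 4 higher and 0 lower in each transfectant and 1 higher and 3 lower in EPR against EPRSTOPE cells. *C3* had 2.11, 384 and 96.6 CPM on average, while *Serping1* itself did not reach the filter. Among the markers, 6 of 6 tested epithelial genes were higher in EPR cells and 3 of 6 in EPRSTOPE cells, with 0 lower in either. Of 4 tested basal or squamous markers 3 were higher and 1 lower in EPR cells and 2 higher and 1 lower in EPRSTOPE cells, and *Krt14* had 0 counts in EPR cells. The stromal list summed to 2797 to 3324 TPM in mock, 1340 to 1818 in EPR and 2322 to 3266 in EPRSTOPE libraries, and 2 of its 10 genes were tested. Nearly all of this sum was *Vim*, with a mean of 3118, 1605 and 2854 TPM, while *Pdgfra*, the other tested gene, had 0 counts in mock and a mean of 1.19 and 1.30 CPM in EPR and EPRSTOPE cells. The single leukocyte and the single endothelial gene tested, *Cd68* and *Pecam1*, were not called in any comparison, and no adipocyte or hepatocyte marker was tested.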
